A study of Mus musculus with 10 samples.

Results

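Microtubules are hollow fibres of alpha and beta tubulin on which kinesins carry cargo mostly towards the growing plus end and cytoplasmic dynein, with its cofactor dynactin, towards the minus end. Structural microtubule-associated proteins (MAPs) stabilise the fibres, end-binding proteins sit on growing tips, and stathmins hold free tubulin dimers. Neurons are rich in all of these because of their long axons and dendrites, oligodendrocytes use them to build myelin processes, and astrocytes use them to carry RNA, organelles and vesicles into fine branches that end on vessels and synapses. The genes described here are the protein-coding genes of the deposited table whose symbols name a kinesin, a cytoplasmic dynein or dynactin subunit, an alpha, beta or gamma tubulin, a gamma tubulin complex protein, a TPPP protein, stathmin 1 to 4, tau or another listed MAP, or an end-binding protein. There were 88 such genes among 18464 genes in all. They were chosen by name and not by level, with earlier results of these data known.

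The samples were polyA RNA from the ventral midbrain (SNpc/VTA, the substantia nigra and ventral tegmental area that hold its dopamine neurons). The mice were naive and carried Aldh1l1-NuTRAP. NuTRAP tags the ribosomes and nuclei of cells chosen by a driver gene, here Aldh1l1, which in brain marks mainly astrocytes. There were 5 input libraries that held RNA of all cell types, and 5 libraries held the astrocyte fraction, the RNA recovered with the tagged ribosomes. All 10 libraries come from this strain, so the inputs carry the tag too, and other cells that express Aldh1l1 would also be tagged. The titles carry the numbers 88, 92, 976, 981 and 982, each found once in either group. Whether they stand for separate animals is not stated in the labels, so p-values measure the spread between these libraries, which may be partly technical.

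Library totals were 21812193 to 30878894 expected counts in the input. Library 92 of the astrocyte fraction was shallow, with 3845554 counts, and the other 4 held 24479136 to 26924406. All 12 listed astrocyte markers were higher in the astrocyte fraction, with a median log2 fold change of 3.05 (range 2.421 to 3.202). All 12 neuron markers were lower, with a median of -2.30 (range -2.62 to -2.02). All 10 oligodendrocyte markers were lower too, with a median of -3.72 (range -4.13 to -0.62). The summed neuron markers were at 7520 to 8860 CPM (the read count per unit of TMM-scaled library size) in the inputs and still at 1540 to 2080 CPM in the astrocyte fraction. The astrocyte markers summed to 5260 to 5680 CPM and 29200 to 43100 CPM. Other cell types were depleted to unlike degrees or not at all. All 9 microglia markers were lower (median -4.29), whereas of 8 endothelial markers 4 were lower and 4 were not called (median -0.34). The endothelial markers summed to 117 to 146 CPM in the inputs and 78.6 to 121 CPM in the astrocyte fraction. Libraries of numbers 976 and 982 stood apart by choroid plexus markers, the tissue that makes cerebrospinal fluid, which summed to 3260 and 674 CPM in these inputs and 12480 and 2629 CPM in these astrocyte fraction libraries, against 26.2 to 109 CPM elsewhere.

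Most microtubule genes were lower in the astrocyte fraction, and the transport kinesins, beta tubulins, MAPs and end-binding proteins each held genes that were lower and genes that were higher. All 5 members that encode heavy, intermediate or light intermediate chains of dynein 1, all 4 stathmins and both TPPP genes were lower. Of 87 genes tested, 49 were lower (56.3%), 17 were higher (19.5%) and 21 were not called, at an adjusted p under 0.05 from edgeR's quasi-likelihood test with Benjamini-Hochberg adjustment over all genes. Among all 17672 tested genes 37.5% were lower and 33.1% higher. These shares are also the background for the counts of each role group and partner list below. The median log2 fold change of the 87 was -0.62, against -0.06 over all tested genes. The libraries of the groups did not overlap for 44 lower and 13 higher members, compared with 31.1% lower and 27.2% higher of all tested genes. Together the 88 genes took 2.16 to 2.42% of the counts in the inputs and 1.03 to 1.11% in the astrocyte fraction. The astrocyte fraction was recovered with tagged ribosomes and the inputs were not. In this contrast, less RNA carried over from other cell types, less RNA of a gene per cell and less of it on ribosomes cannot be told apart.

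Scaling matters for small changes. With libraries scaled to their total counts the median over all tested genes moved to -0.34 (log2), and members called higher made up 11.8% of the called members instead of 25.8%. Under that scaling 8 members were higher, all of them among the 17, and 60 were lower, including all 49. Log2 fold changes below are astrocyte fraction minus input, relative to the main scaling, with the standard error (SE) of the difference in mean log2 CPM.

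**Figure D1:**
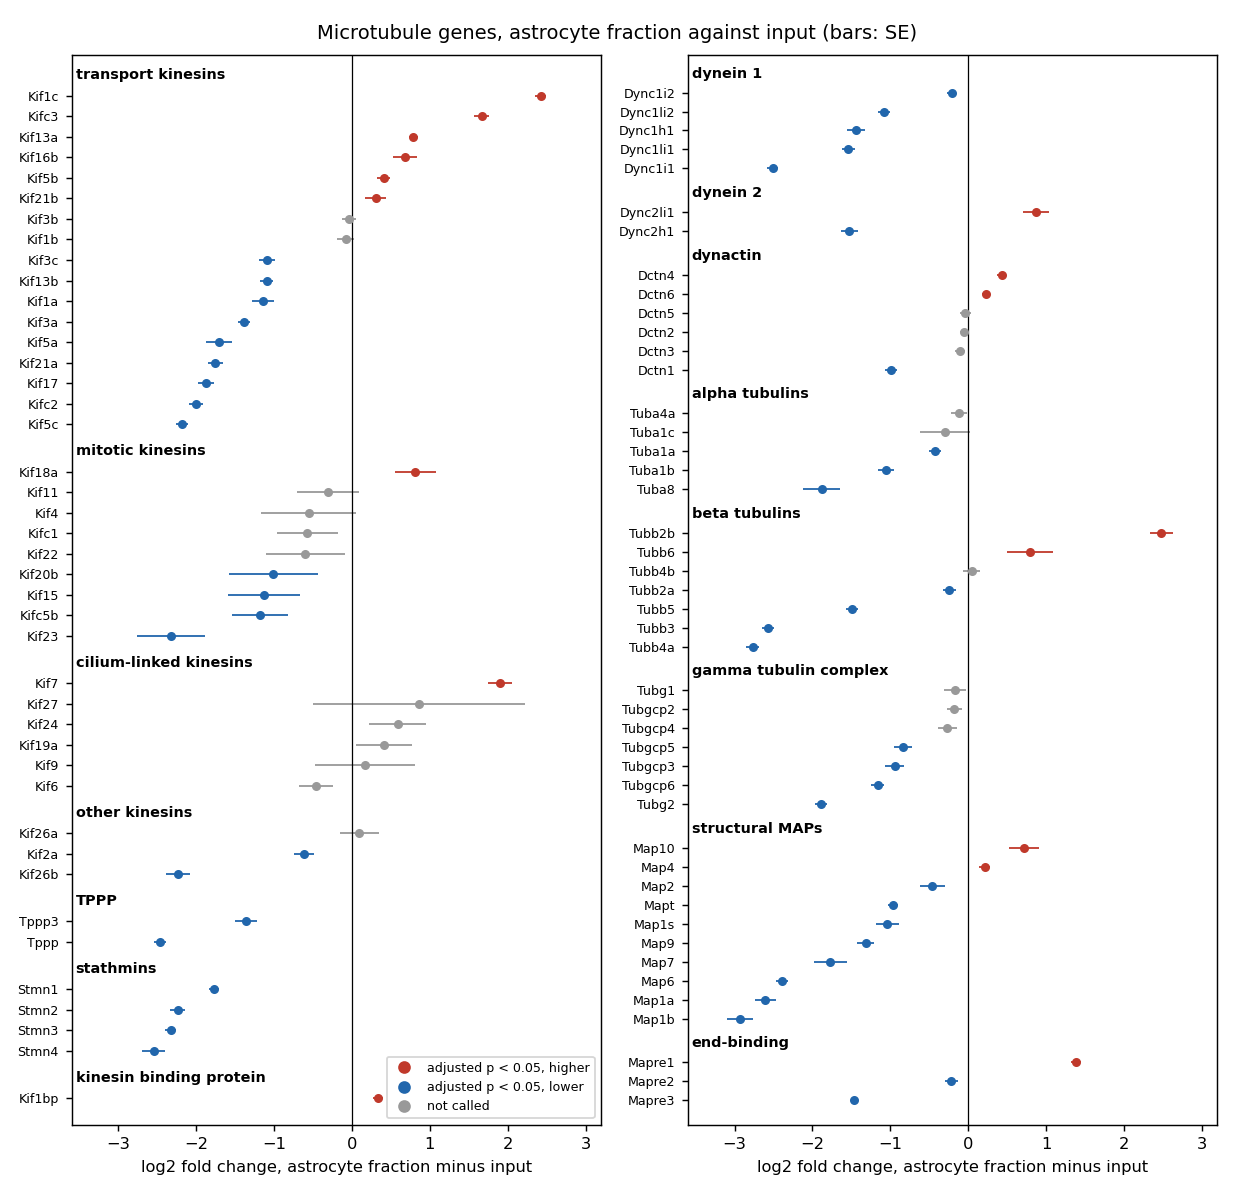
Log2 fold change of the 87 tested microtubule genes by role, with points coloured by call and bars giving the SE of the difference between 5 astrocyte fraction and 5 input libraries. Values run from -2.93 (Map1b) to 2.48 (Tubb2b), and the Dync1 genes of dynein 1, the stathmins and TPPP hold blue points alone.

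The 2 largest gains, Tubb2b (2.48) and Kif1c (2.421), lay just inside the lower end of the range of the 12 astrocyte markers, of which 11 rose more. The other 85 members lay below that range. Inside the range of the 12 neuron markers lay 11 members, namely Tubb3, Dync1i1, Kif23, Kif26b, Stmn2, Stmn3, Stmn4, Map1a, Map6, Tppp and Kif5c. Only Map1b and Tubb4a were lower still, and the other 74 were above that range. The oligodendrocyte markers spanned a wider range (-4.13 to -0.62). It held 43 members, among them these 11, Map1b and Tubb4a, and 44 lay above it. Which cell type a loss reflects was not tested. Kif23 was scarce, with group means of 0.729 CPM (inputs) and 0.0658 CPM (astrocyte fraction).

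Transport kinesins held genes that fell and genes that rose. Of 17 tested, 9 fell (52.9%), 6 rose (35.3%) and 2 had no call. Among all tested genes 37.5% were lower and 33.1% higher, so the share that rose was near that of all genes. The median log2 fold change of the group was -1.09. Library values are given in CPM in the order 88, 92, 976, 981 and 982. Kif5a, a neuronal heavy chain of kinesin-1, the classic axonal motor, had the highest mean CPM of the group over all libraries. Its inputs were at 2182, 1976, 1487, 2029 and 1456 CPM and its astrocyte fraction libraries at 715, 452, 487, 576 and 572 CPM. Every astrocyte fraction library was below every input, and Kif5a fell by 1.70 on the log2 scale (SE 0.17, adjusted p = 3.68e-07), a 3.26-fold loss. The second neuronal heavy chain gene, Kif5c, had inputs at 727, 703, 594, 733 and 631 CPM and stood at 168, 151, 142, 137 and 147 CPM in the astrocyte fraction. It fell by 2.19 (SE 0.08, adjusted p = 2.20e-10), the largest loss of the group, again with no overlap.

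Kif5b, the heavy chain found in most tissues, went the other way. Its level was 315, 289, 277, 276 and 256 CPM in the inputs and 385, 432, 336, 375 and 343 CPM in the astrocyte fraction. The log2 fold change was 0.40 ± 0.08 (SE, adjusted p = 0.000688), and it was 0.12 and not called (adjusted p = 0.204) with total count scaling. Counted per kilobase of exon, Kif5b made up 9.15 ± 0.962% of the 3 kinesin-1 heavy chain genes in the input and 31.9 ± 4.16% in the astrocyte fraction (n = 5, SD). The share of Kif5a was 66.4 ± 2.42% and 53.9 ± 4.82%, so its RNA remained the most abundant of the 3 in both groups.

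Kif1c showed the largest gain of any motor gene. It encodes a kinesin-3 motor that carries vesicles and messenger RNA and is expressed in many cell types. Inputs held 173, 157, 198, 159.5 and 161 CPM and astrocyte fraction libraries 952, 853, 892, 900.4 and 949.5 CPM. The lowest astrocyte fraction library was far above the highest input, a 5.36-fold gain (log2 2.42 ± 0.07, adjusted p = 8.87e-11). Kif1a, its relative that moves synaptic vesicle precursors along axons, fell from 1275 ± 228 to 577 ± 76.0 CPM (n = 5, SD), which is -1.14 on the log2 scale. The third, Kif1b, which carries mitochondria and vesicle precursors, was not called (-0.08, adjusted p = 0.484), although with total count scaling it was lower (-0.37, adjusted p = 0.00240). Per exon kilobase, Kif1c was the least abundant of the 3 in the input at 11.97 ± 2.40% and the most abundant in the astrocyte fraction at 56.1 ± 3.72%, whereas Kif1a passed from 68.4 ± 2.99% to 27.6 ± 2.42%.

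The promoters of Kif1a and Kif1c are printed because these relatives changed in opposite directions. Both run from 250 bases before to 50 bases after the gene start, from RefSeq on GRCm38.p6, with GC boxes (GGGCGG on either strand) in capitals. Kif1a lies at chr1:93101825-93102124 on the minus strand and Kif1c at chr11:70700298-70700597 on the plus strand.
Kif1a: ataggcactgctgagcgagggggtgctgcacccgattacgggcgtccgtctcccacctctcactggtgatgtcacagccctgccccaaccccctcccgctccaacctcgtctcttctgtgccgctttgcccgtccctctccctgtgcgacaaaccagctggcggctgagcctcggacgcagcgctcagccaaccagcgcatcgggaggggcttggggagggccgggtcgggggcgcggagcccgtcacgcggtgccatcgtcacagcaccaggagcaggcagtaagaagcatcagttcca
Kif1c: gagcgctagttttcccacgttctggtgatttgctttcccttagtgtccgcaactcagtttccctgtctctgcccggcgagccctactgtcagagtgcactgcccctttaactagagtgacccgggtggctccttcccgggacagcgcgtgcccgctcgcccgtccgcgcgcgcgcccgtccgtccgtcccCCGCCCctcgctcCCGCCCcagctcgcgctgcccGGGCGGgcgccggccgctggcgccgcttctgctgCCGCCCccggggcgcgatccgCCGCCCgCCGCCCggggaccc
The Kif1c window held 6 GC boxes, 41 CpG dinucleotides and 73.3% G or C, and the Kif1a window 0 GC boxes, 24 CpG dinucleotides and 67% G or C. Neither held a TATA box (TATAAA) or a CCAAT box (CCAAT), searched on both strands. RefSeq promoters matched 64 of the 88 members. Of these, 67.2% held a GC box, against 46.3% of 17492 protein-coding promoters and 35.9% of all 27025. The member promoters were also richer in G and C, with a median of 62.3% against 52.7% of all promoters, and the part of this in the GC box share was not tested. Levels were not compared with these letters.

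The minus-end kinesins Kifc2 and Kifc3 moved apart as well. Kifc3, a motor of cell junctions and of the Golgi, stood at 78.6, 90.4, 84.3, 73.6 and 81.8 CPM in the inputs and at 254, 245, 262, 221 and 313 CPM in the astrocyte fraction. Kifc2, a neuronal motor found in dendrites and axons, stood at 231, 301, 266, 254 and 266 CPM and at 64.1, 57.5, 64.2, 63.9 and 77.9 CPM. Neither gene had overlapping groups, and the log2 fold changes were 1.66 ± 0.10 (adjusted p = 5.85e-09) for Kifc3 and -2.001 ± 0.09 (adjusted p = 1.08e-09) for Kifc2.

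Other transport kinesins also changed in both directions. The endosome motors Kif13a (0.79) and Kif16b (0.68) rose, as did Kif21b (0.30), whereas Kif13b (-1.10) and Kif21a (-1.75) fell. The Kif21b call was lost (adjusted p 0.0564 to 0.907) with another scaling, the DESeq2 test, the stricter filter, the authors' log2 values, and with the numbers 976 and 982, any of the inputs 88, 976, 981 and 982 or the astrocyte fraction library 92 or 982 left out. Its value was 0.18 without the last and 0.02 with total counts. Of kinesin-2, which moves cargo in axons and builds cilia, Kif3a (-1.38), Kif3c (-1.09) and Kif17 (-1.87) fell, and Kif3b was not called (-0.04, adjusted p = 0.712). The opposite strand gene 1110002L01Rik overlaps 35.3% of the exon bases of Kif3c. Kif1bp, the kinesin binding protein, which holds motors off the microtubule, rose by 0.33 (adjusted p = 0.00113), a change that shrank to 0.05 with total count scaling (adjusted p = 0.584).

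Among kinesins outside transport, Kif2a, a microtubule-shortening motor, fell by 0.62. Its inputs were at 63.3, 73.7, 56.4, 65.7 and 62.2 CPM and its astrocyte fraction libraries at 45.0, 51.4, 34.4, 45.2 and 35.1 CPM. Kif26b, an atypical kinesin without motor activity, stood at 37.9, 39.8, 33.5, 37.1 and 32.6 CPM and at 7.06, 8.80, 6.30, 6.11 and 10.4 CPM. Both genes had separate groups, and Kif26b fell by 2.23 (SE 0.16, adjusted p = 2.89e-08), while its relative Kif26a was not called (0.09, adjusted p = 0.727).

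Cytoplasmic dynein 1, the main minus-end motor, is built from heavy, intermediate and light intermediate chains, which the members cover, and light chains, which they do not. All 5 of these members fell, and none of their groups overlapped. The heavy chain Dync1h1, which holds the motor domain, had input levels of 449, 629, 448, 444 and 399 CPM and stood at 162, 178, 176, 163 and 194 CPM in the astrocyte fraction. The change was -1.44 ± 0.12 on the log2 scale (adjusted p = 1.33e-07). Dync1i1, the neuronal intermediate chain that binds dynactin, was at 141, 157, 142, 167 and 145 CPM and at 24.2, 27.0, 28.1, 28.9 and 23.8 CPM. It fell by 2.51 (SE 0.07, adjusted p = 9.24e-11) and retained 17.6% of the input level. The other intermediate chain, Dync1i2, found in most tissues, retained 86.3% (log2 fold change -0.21 ± 0.06, adjusted p = 0.0163). That small loss was not called without the astrocyte fraction library 976 (-0.11, adjusted p = 0.192) or 982 (adjusted p = 0.0543) or without the numbers 976 and 982 (-0.07, adjusted p = 0.434). Of the light intermediate chains, Dync1li1 was at 92.6, 109, 93.8, 97.9 and 99.2 CPM and at 28.6, 38.1, 33.9, 34.6 and 35.0 CPM. Dync1li1 (-1.54) and Dync1li2 (-1.08) both fell. Of 8 light chains in the partner list, which dynein 2 and other proteins also use, 7 were tested, and 5 rose, 1 fell and 1 was not called. Those that rose were Dynll1 (0.67), Dynlrb1 (0.31), Dynlt3 (0.76), Dynlt1b (1.21) and Dynlt1f (1.40), and Dynll2 (-0.41) fell. The Dynlt1 genes are close copies, so their separate counts are uncertain. With total count scaling 4 light chains rose, and Dynlrb1 was at 0.0239 (adjusted p = 0.778).

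Of the 6 dynactin members, the Dctn genes, 1 fell, 2 rose and 3 were not called. Dctn1, whose p150 protein binds both dynein and the microtubule, had input levels of 551, 633, 550.0, 578 and 573 CPM and stood at 274, 263, 312, 272 and 331 CPM in the astrocyte fraction, which is -0.99 ± 0.07 on the log2 scale (adjusted p = 1.62e-07). Dctn4 rose from 87.0, 88.0, 78.6, 86.6 and 79.9 CPM to 115, 123, 102, 119 and 108 CPM (0.43 ± 0.06, adjusted p = 0.000123). Dctn6 rose from 49.2, 44.0, 44.4, 46.8 and 52.3 CPM to 53.9, 58.4, 56.7, 55.4 and 53.04 CPM (0.23 ± 0.05, adjusted p = 0.0115). No group overlapped for these 3 genes. The arm and filament-end subunits Dctn2 (-0.06), Dctn3 (-0.10) and Dctn5 (-0.04) were not called. Of 6 further dynactin subunits in the partner list, Actr1b (-0.82), Actr10 (-0.38) and Capza1 (-0.34) fell, Capza2 (0.77) and Capzb (0.31) rose and Actr1a (0.11) was not called. Without the numbers 976 and 982, 1 of these 6 was lower, and with total count scaling 4 were lower and 1 higher. The split of the Dctn genes is sensitive to scaling: with total counts 4 genes were lower and 0 higher, with the stricter filter (mean of 5 CPM) 3 were lower and 1 higher, and Dctn4 was at 0.14 and Dctn6 at -0.06 with total counts.

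The paired chains of dynein 2, the motor that returns cargo inside cilia, differed. Dync2h1, the heavy chain, fell from 28.1, 33.3, 26.8, 30.2 and 24.1 CPM to 8.81, 11.4, 10.97, 8.64 and 9.86 CPM (-1.53 ± 0.11, adjusted p = 1.22e-07). Dync2li1, the light intermediate chain, rose from 13.7, 12.7, 14.6, 11.3 and 14.4 CPM to 27.1, 15.8, 28.8, 25.3 and 23.3 CPM (0.87 ± 0.17, adjusted p = 0.000129). Neither had overlapping groups.

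Beta tubulins showed the widest spread of any family, from a 6.80-fold loss to a 5.58-fold gain. Of 7 genes, 4 fell, 2 rose and 1 was not called. The coding ends of 5 of them are printed because this stretch encodes the acidic tail by which the isotypes differ most, while the preceding bases are much alike. Each line gives the last 48 to 66 coding bases before the stop codon, from GENCODE M21 on mm10, with capitals for bases not matched to an identical base of Tubb2a in a global alignment.
Tubb2a: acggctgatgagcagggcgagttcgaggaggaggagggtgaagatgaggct
Tubb3: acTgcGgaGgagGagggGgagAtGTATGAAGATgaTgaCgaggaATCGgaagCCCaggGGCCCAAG
Tubb4a: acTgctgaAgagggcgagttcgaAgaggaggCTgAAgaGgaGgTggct
Tubb4b: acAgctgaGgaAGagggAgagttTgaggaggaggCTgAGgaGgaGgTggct
Tubb5: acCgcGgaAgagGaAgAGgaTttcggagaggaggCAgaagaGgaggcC
The stretches lie at chr13:34074471-34074521 (Tubb2a, minus strand), chr8:123421614-123421679 (Tubb3, plus strand), chr17:57080693-57080740 (Tubb4a, minus strand), chr2:25222311-25222361 (Tubb4b, minus strand) and chr17:35834985-35835032 (Tubb5, minus strand). Unlike Tubb2a were 33 of 66 bases in Tubb3, 10 of 48 in Tubb4a, 13 of 51 in Tubb4b and 12 of 48 in Tubb5. Before this stretch, 84 to 85.2% of coding bases were identical to Tubb2a.

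Tubb2b (ENSMUSG00000045136, mm10 chromosome 13, 34126748 to 34130466), an isotype of the developing brain, had the largest gain of all 87 members. Inputs held 143, 106, 109, 135 and 114 CPM and astrocyte fraction libraries 851, 579, 534, 751 and 677 CPM. No library overlapped, and the log2 fold change was 2.48 ± 0.15 (SE, adjusted p = 4.68e-09). Its close relative Tubb2a, on the same chromosome, had input levels of 544, 579, 520.2, 603 and 565 CPM and stood at 501, 388, 454, 502 and 529.7 CPM in the astrocyte fraction. The groups overlapped, and the small loss (-0.24 ± 0.09, adjusted p = 0.0239) was not called without input 981 (adjusted p = 0.0615), without the astrocyte fraction library 92 (0.0529) or 976 (-0.15, adjusted p = 0.218), or without the numbers 976 and 982 (0.126). Of the transcript of Tubb2a, 49.6% of 50-base stretches also occur in another gene, mainly Tubb2b, and of Tubb2b 39.3%, mainly Tubb2a. The authors' assignment of such reads decides how far the pair can be told apart.

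Tubb4a and Tubb3 had the largest losses among the beta tubulins. Tubb4a (chromosome 17, 57080066 to 57087782), an isotype of neurons and oligodendrocytes, was at 897, 952, 984, 864 and 1047 CPM and at 119.9, 148, 135, 136 and 159 CPM. It fell by 2.77 (SE 0.08, adjusted p = 8.84e-11). Tubb3 (chromosome 8, 123411424 to 123422015), the isotype used as a marker of neurons, was at 551, 582, 486, 526 and 565 CPM and at 87.1, 108, 86.0, 89.8 and 88.4 CPM, and fell by 2.57 (SE 0.07, adjusted p = 7.31e-11). Tubb4a retained 14.7% and Tubb3 16.9% of the input level, with separate groups. Tubb5, the isotype of most dividing and young cells, fell by 1.49. Tubb4b, a broadly expressed isotype also used in cilia, was not called (0.04 ± 0.11, adjusted p = 0.695), and 55.5% of its 50-base stretches occur elsewhere, mainly in the pseudogene Tubb4b-ps1.

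Tubb6, a rare isotype, rose on low values. It had input levels of 3.85, 3.77, 4.83, 3.49 and 4.67 CPM and stood at 5.92, 5.58, 10.9, 3.72 and 9.54 CPM in the astrocyte fraction. The library 981 of the astrocyte fraction lay inside the input range, and the 2 highest libraries carried the numbers 976 and 982. The log2 fold change was 0.80 ± 0.29 (adjusted p = 0.0166), and it was not called without these numbers (0.53, adjusted p = 0.109) or with total count scaling (0.52, adjusted p = 0.106).

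Per exon kilobase the makeup of the beta tubulin pool differed between the groups. Tubb2b made up 3.80 ± 0.567% of the 7 genes in the input and 32.8 ± 3.70% in the astrocyte fraction (n = 5, SD). Tubb4a passed from 30.5 ± 2.01% to 7.07 ± 1.20%, and Tubb3 from 20.8 ± 1.02% to 5.57 ± 1.12%. Tubb2a held 25.0 ± 1.23% and 32.9 ± 1.47%. In the astrocyte fraction Tubb2a and Tubb2b were thus level and together the main isotypes, whereas in the input Tubb4a, Tubb2a and Tubb3 led in that order.

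**Figure D2:**
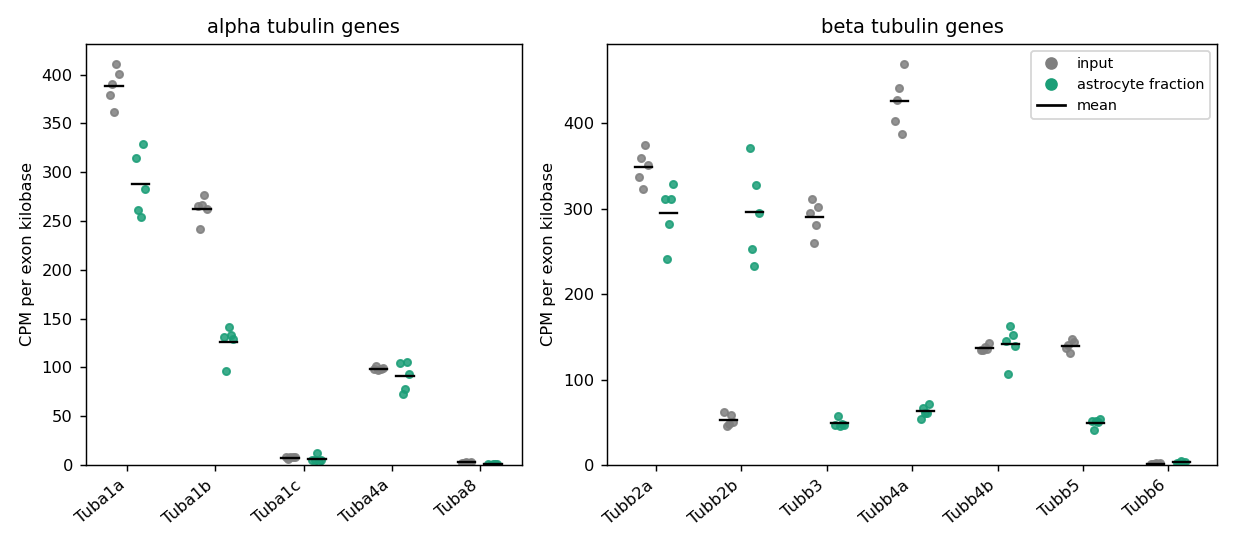
CPM per exon kilobase of the 5 alpha tubulin and 7 beta tubulin genes in each of 5 input (grey) and 5 astrocyte fraction (green) libraries, with the mean as a line. Tubb2b lies higher and Tubb3, Tubb4a and Tubb5 lie lower in every astrocyte fraction library, and the alpha genes keep their order.

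Alpha tubulins changed less. Tuba1a, the main neuronal and developmental alpha isotype, had input levels of 684, 704, 651, 741 and 722 CPM and stood at 567, 472, 457, 593 and 509 CPM in the astrocyte fraction. Tuba1b, the general isotype, was at 498, 454, 499, 519 and 492 CPM and at 245, 181, 265, 249 and 242 CPM. Neither overlapped, and the log2 fold changes were -0.43 ± 0.08 (adjusted p = 0.000471) and -1.05 ± 0.10 (adjusted p = 3.85e-07). Tuba8, an isotype of low level here, fell by 1.88. Tuba4a was not called (-0.12, adjusted p = 0.305), and Stk16 on the opposite strand overlaps 37.3% of its exon bases. Tuba1c was not called (-0.30, adjusted p = 0.380), and the astrocyte fraction library 976 held 28.0 CPM against 7.48 to 12.2 CPM in its group. Without that library (-0.66, adjusted p = 0.00172), or without the numbers 976 and 982 (-0.61, adjusted p = 0.0279), it was lower. Tuba1a shares 75.5% and Tuba1b 83.1% of 50-base stretches with other genes, mainly Tuba1c, so their separate counts are uncertain. Per exon kilobase the order Tuba1a, Tuba1b, Tuba4a, Tuba1c, Tuba8 was the same in both groups.

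In the gamma tubulin complex, which starts new microtubules, 4 of 7 genes fell, 0 rose and 3 were not called. Tubg1, the general gamma tubulin, was at 47.01, 53.7, 53.1, 41.2 and 55.1 CPM and at 43.7, 31.99, 50.04, 44.9 and 49.8 CPM, with overlapping groups and no call (-0.17, adjusted p = 0.225). Tubg2, the brain-enriched copy, was at 46.9, 44.0, 45.9, 46.9 and 49.04 CPM and at 12.7, 10.6, 12.6, 11.7 and 14.4 CPM. This neighbour of Tubg1 on chromosome 11 fell by 1.89 (SE 0.08, adjusted p = 1.45e-09). Only 14.1% (Tubg1) and 14.3% (Tubg2) of their 50-base stretches occur in other genes, mainly in each other. Among complex proteins, Tubgcp6 was at 38.6, 47.5, 43.7, 38.8 and 43.0 CPM and at 18.9, 19.4, 20.5, 15.99 and 19.8 CPM. Tubgcp6 (-1.16), Tubgcp3 (-0.95) and Tubgcp5 (-0.84) fell, whereas Tubgcp2 (-0.18) and Tubgcp4 (-0.27, adjusted p = 0.0562) were not called. Tubgcp4 was lower without input 88 (adjusted p = 0.0240), with either DESeq2 setting or with the stricter filter, and with total count scaling all 7 genes were.

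Structural MAPs held the largest loss of all members. Of 10 tested, 8 fell and 2 rose. Map1b (chromosome 13, 99421446 to 99516540), a neuronal MAP of growing axons, was the gene with that loss, from 1159.6, 1448, 1002, 1214 and 1023 CPM to 127, 215, 141, 136 and 151 CPM. Map1a, its counterpart in mature dendrites, fell from 1252, 1607, 1154, 1259 and 1179.8 CPM to 195, 274, 186, 189.5 and 219 CPM. The groups were far apart for both, and the log2 fold changes were -2.93 ± 0.16 (adjusted p = 3.48e-09) and -2.60 ± 0.13 (adjusted p = 1.72e-09). Map6, which makes neuronal microtubules resist cold, fell (-2.39), as did Map7, a recruiter of kinesin-1 (-1.77), Map9 (-1.32) and Map1s (-1.04).

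Mapt and Map2, both known mainly as neuronal MAPs, fell less than the 12 neuron markers. Mapt, the tau gene, had input levels of 727, 704, 647, 734 and 651 CPM and stood at 357, 369, 308, 361 and 383 CPM in the astrocyte fraction, retaining 51.3% (-0.96 ± 0.07, adjusted p = 1.17e-07). Map2 was at 637, 597, 458, 672 and 436 CPM and at 423, 431, 319, 479.7 and 379 CPM, retaining 72.6% (-0.46 ± 0.16, adjusted p = 0.00966). The Mapt groups did not overlap and the Map2 groups did, although Map2 was lower in the astrocyte fraction of all 5 numbers. Residual neuronal RNA was present in these libraries at the marker levels given above, and its part in these values was not tested.

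Map4, the MAP of non-neuronal cells, and Map10 rose. Map4 was at 623, 712, 606, 668 and 667 CPM and at 752, 802, 649.7, 806 and 777 CPM. Map10, a MAP first described in dividing cells, was at 5.78, 5.23, 3.98, 4.45 and 4.78 CPM and at 9.38, 11.2, 5.74, 6.59 and 8.003 CPM. Each was higher in the astrocyte fraction of all 5 numbers, with overlapping groups. The Map4 change was small (0.21 ± 0.07, adjusted p = 0.0289), was not called without the inputs 88 (adjusted p = 0.0702) or 976 (0.0678) or the astrocyte fraction library 981 (0.0560) or with DESeq2 size factors, the stricter filter or the authors' log2 values, and was 0.33 (adjusted p = 0.000907) without the astrocyte fraction library 976. With total count scaling its sign turned (-0.08, adjusted p = 0.306). The Map10 value was 0.72 ± 0.19 (adjusted p = 0.00512), or 0.43 with total count scaling (adjusted p = 0.0592).

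The end-binding proteins EB1, EB2 and EB3 each behaved differently. Mapre1, the gene of EB1, the general tip-tracking protein, had input levels of 78.0, 75.5, 80.8, 83.2 and 73.2 CPM and stood at 193, 239, 195, 204 and 189 CPM in the astrocyte fraction. Mapre3, which encodes the neuronal EB3, was at 188, 195, 198, 196 and 207 CPM and at 68.6, 69.0, 76.3, 68.8 and 73.2 CPM. Neither overlapped, with log2 fold changes of 1.38 ± 0.07 (adjusted p = 4.69e-09) and -1.46 ± 0.04 (adjusted p = 4.47e-10). Mapre2, for EB2, was the most abundant by count, at 279, 307, 259.8, 285 and 282 CPM and at 246, 261, 197, 263 and 250.3 CPM. The groups overlapped, and it fell slightly (-0.22 ± 0.08, adjusted p = 0.0345), a call lost without any of the inputs 88, 92, 981 and 982 or the astrocyte fraction libraries 88, 976 and 982 (adjusted p 0.0538 to 0.342), without a filter (0.0525), on the authors' log2 values (0.0528) or without the numbers 976 and 982 (0.462). Mapre2 was at -0.08 without the astrocyte fraction library 976. Per exon kilobase Mapre1 passed from 10.6 ± 0.676% to 37.0 ± 2.07% of the 3 genes, or from 5.98 to 22.5% with the longest transcript as the length.

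All 4 stathmins fell, by 1.77 to 2.55 on the log2 scale, and no group overlapped. Stmn3 was at 440.3, 427, 506, 464 and 507 CPM and at 98.9, 84.8, 95.2, 99.7 and 86.8 CPM (-2.33 ± 0.07, adjusted p = 9.24e-11). Stmn4 was at 223, 232, 256, 229.7 and 281 CPM and at 33.9, 53.99, 47.7, 34.0 and 42.0 CPM (-2.55 ± 0.15, adjusted p = 2.54e-09). Both are neuronal forms anchored to membranes, as is Stmn2, a gene of axon growth and repair (-2.24). Stmn1, the soluble form that dividing cells also use, had the smallest loss (-1.77), and 36.5% of its 50-base stretches occur in other genes.

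Both TPPP genes, whose proteins bundle microtubules, fell. Tppp, a protein best known from oligodendrocytes, was at 414, 395, 381, 453 and 373 CPM and at 71.6, 68.7, 68.9, 70.9 and 83.8 CPM. Tppp3 was at 88.7, 61.7, 80.1, 72.3 and 80.9 CPM and at 36.6, 26.4, 24.8, 33.7 and 26.4 CPM. The groups were separate, with log2 fold changes of -2.47 ± 0.07 (adjusted p = 8.87e-11) and -1.36 ± 0.14 (adjusted p = 7.49e-07).

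Some pairs share a gene. The ratio of 2 family members inside a library does not depend on how libraries are scaled. The 26 pairs were formed by family, with earlier results of these data known. For each, the log2 ratio of CPM + 0.5 was compared between 5 astrocyte fraction and 5 input libraries with a two-sided exact permutation test. All 26 pairs differed (100%), each with the smallest p the test can give (0.00794, adjusted over the pairs 0.00794) and with the same direction in all 5 numbers. The test permutes the libraries freely. Kept to pairs of the same title number it could not go below 0.0625, so no pair would be called in that form, and the paired form was not run. Since 70.6% of all tested genes were called, a called ratio alone does not set a pair apart, and the size carries the description. The largest differences were Kifc2 to Kifc3 (-3.65 ± 0.06, SE), Mapre3 to Mapre1 (-2.84 ± 0.09), Tubb4a to Tubb4b (-2.79 ± 0.15), Tubb2a to Tubb2b (-2.72 ± 0.13) and Kif5c to Kif5b (-2.58 ± 0.08), and, upwards, Kif1c to Kif1b (2.51 ± 0.15). The smallest were Tuba4a to Tuba1a (0.30 ± 0.06), Map1a to Map1b (0.33 ± 0.06) and Dync1li1 to Dync1li2 (-0.45 ± 0.08).

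**Figure D3:**
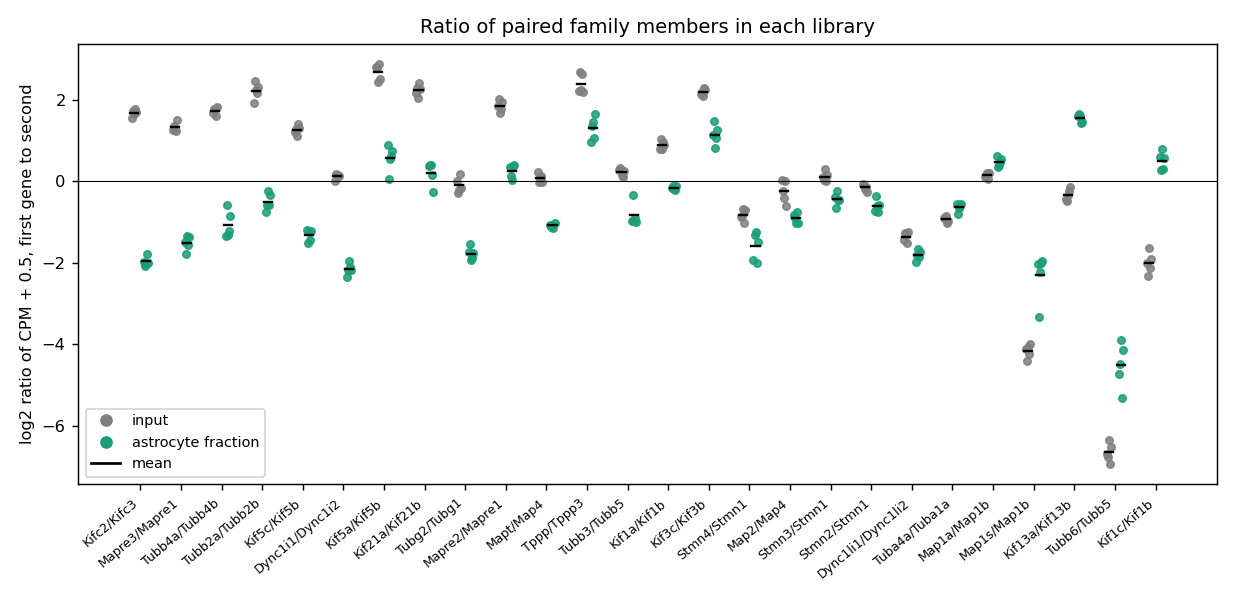
Log2 ratio of CPM + 0.5 of the first to the second gene for 26 pairs, 1 point per library, 5 input (grey) and 5 astrocyte fraction (green), with the mean as a line, ordered by the difference. The groups are separate in every pair, from -3.65 for Kifc2/Kifc3 at the left to 2.51 for Kif1c/Kif1b at the right.

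Kinesins of cilia were low in all libraries, and several followed the title number more than the group. Kif7, a regulator of hedgehog signalling at the cilium tip, was the 1 of 6 that rose, from 3.2001, 2.22, 3.06, 2.37 and 2.73 CPM to 10.6, 7.63, 9.69, 12.2 and 11.03 CPM (1.90 ± 0.15, adjusted p = 4.89e-07). The groups did not overlap, and 9330171B17Rik on the opposite strand overlaps 19.1% of its exon bases. Kif27, a relative tied to motile cilia, had input levels of 2.27, 1.43, 4.75, 1.46 and 2.97 CPM and stood at 0.857, 0.00, 16.9, 0.385 and 4.16 CPM in the astrocyte fraction. Kif9, a kinesin of the motile axoneme, was at 3.29, 3.71, 7.81, 3.83 and 7.40 CPM and at 3.67, 1.17, 14.7, 2.74 and 5.70 CPM. In both genes and both groups the 2 highest libraries were 976 and 982, and the count of 0 for Kif27 in the shallow library 92 allows up to 0.880 CPM.

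Neither Kif27 (0.86 ± 1.36, adjusted p = 0.439) nor Kif9 (0.17 ± 0.64, adjusted p = 0.783) was called. Without the numbers 976 and 982 Kif27 was lower (-1.43, adjusted p = 0.0313), Kif9 was at -0.26, and Kif19a, which trims cilia, was higher (0.97, adjusted p = 0.0266), against 0.41 and no call with all libraries. The 8 ependymal markers in the table, genes of the ciliated ventricle lining, summed to 81.4 and 73.3 CPM in the inputs 976 and 982 against 18.9 to 29.6 CPM in the other inputs. They summed to 207 and 84.6 CPM in the astrocyte fraction of these numbers against 23.2 to 34.6 CPM in the others. The part of such cells in these values was not tested. Kif6 (-0.46) and Kif24 (0.59) were not called, and Kif24 was higher without the astrocyte fraction library 976 (0.83, adjusted p = 0.0440).

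Mitotic kinesins were near the limit of detection, as were genes of dividing cells, of which 3 of 8 listed were in the table and summed to 3.83 to 4.32 CPM in the inputs and 0.571 to 1.76 CPM in the astrocyte fraction. All 10 mitotic kinesins in the table had mean levels under 3 CPM in each group. Of 9 tested, 4 fell, 1 rose and 4 were not called. Kifc5b, a minus-end spindle motor, was at 2.30, 2.46, 2.76, 2.25 and 1.63 CPM and at 0.857, 2.64, 0.758, 0.812 and 0.678 CPM. The shallow library 92 alone lay within the input range, and the gene fell by 1.18 (SE 0.36, adjusted p = 0.00519). It shares 42.1% of 50-base stretches with other genes, mainly its copy Kifc1 (-0.58, not called), so the pair is uncertain.

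Kif23, needed for the last step of cell division, had input levels of 0.715, 0.365, 1.29, 0.499 and 0.779 CPM and stood at 0.204, 0.00, 0.0798, 0.00 and 0.0452 CPM in the astrocyte fraction (-2.32 ± 0.43, adjusted p = 0.000564). Kif15, a spindle motor (-1.13), and Kif20b (-1.01) fell too. The Kif20b call was lost without the inputs 88 or 982 (adjusted p = 0.0562) or the astrocyte fraction libraries 88 (0.0638), 976 (0.0710) or 982 (0.0548). Kif18a, which limits spindle microtubule length, was the 1 that rose (0.81 ± 0.26, adjusted p = 0.0197), with 0.295 to 0.991 CPM in the inputs and 1.14 to 1.45 CPM in the astrocyte fraction. Kif18a was not called with total count scaling (0.55, adjusted p = 0.0961) or without the numbers 976 and 982 (adjusted p = 0.0547), and Kifc5b and Kif20b were not called either (adjusted p = 0.0994 and 0.142). Kif11 (-0.31), Kif22 (-0.60) and Kif4 (-0.56) were not called, although Kif22 was lower without the astrocyte fraction library 982 (-1.06, adjusted p = 0.0422) or without the numbers 976 and 982 (-1.57, adjusted p = 0.0203). Kif20a was below the filter, at 0.311 to 0.499 CPM in the inputs and 0.00 to 0.199 CPM in the astrocyte fraction.

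**Figure D4:**
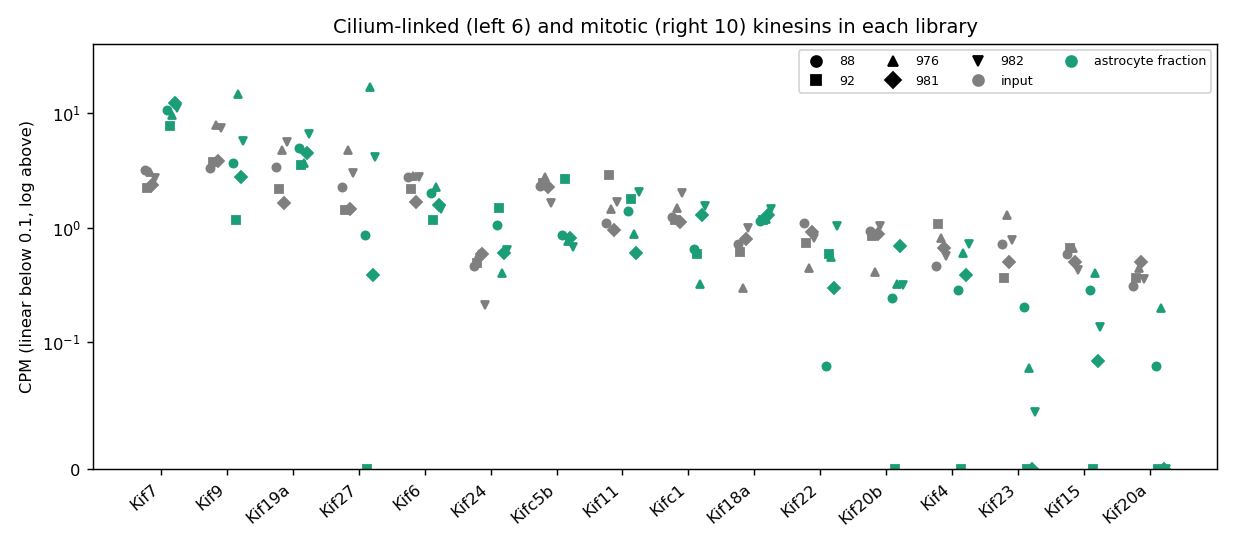
CPM of the 6 cilium-linked and 10 mitotic kinesins in each input (grey) and astrocyte fraction (green) library, with the marker shape giving the title number and an axis that is linear below 0.1 and logarithmic above. Kif27 and Kif9 are highest in libraries 976 and 982 of both groups, and Kif7 is higher in every astrocyte fraction library.

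The mitotic kinesins shared a promoter motif that the choice of genes did not use. The letters TTTGAA form the core of the cell cycle homology region, through which cell cycle genes are repressed in resting cells, and were searched on both strands from 250 bases before to 50 after the gene start. They occurred in 8 of the 9 mitotic kinesins with a RefSeq promoter, all but Kif18a. Of all 27025 promoters 18.1% held them, and of 17492 protein-coding ones 16.5%. Of the 64 members 13 held them (20.3%), and these 13 include the 8 mitotic kinesins. In each of the 8 a match began between 19 bases before and 29 bases after the gene start. Shown are 30 bases around that match on the strand of the gene, with the motif or its reverse in capitals, at GRCm38.p6 positions.
Kif11 (chr19:37376351-37376380, plus strand): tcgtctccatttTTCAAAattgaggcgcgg
Kif15 (chr9:122951050-122951079, plus strand): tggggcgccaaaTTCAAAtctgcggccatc
Kif20b (chr19:34922353-34922382, plus strand): gagccgccattgTTTGAAtttgaaaaccgg
Kif22 (chr7:127042420-127042449, minus strand): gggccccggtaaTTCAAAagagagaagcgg
Kif23 (chr9:61946780-61946809, minus strand): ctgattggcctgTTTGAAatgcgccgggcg
Kif4 (chrX:100626072-100626101, plus strand): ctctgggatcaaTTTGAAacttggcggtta
Kifc1 (chr17:33890615-33890644, minus strand): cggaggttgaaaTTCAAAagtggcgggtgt
Kifc5b (chr17:26917108-26917137, plus strand): cggaggttgaaaTTCAAAagtgactggtgt
Kifc1 and Kifc5b are near-identical copies, so their windows are not separate cases. Kif20b holds a second match directly behind the first, and Kif15 and Kif22 each hold another one farther upstream. A match describes letters and not binding.

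Beyond the members, partners of the microtubule system were read from 5 lists. Their shares stand against 33.1% higher and 37.5% lower among all tested genes. Of 18 kinesin adaptors and light chains, 3 rose (16.7%) and 9 fell (50%). The JNK-interacting scaffolds Mapk8ip2 (-2.24) and Mapk8ip3 (-1.73) were lower, and Fez2 (0.996) and the mitochondrial adaptor Trak1 (0.56) were higher. Of 23 dynein partners, 8 rose (34.8%) and 11 fell (47.8%). The related dynein regulators Nde1 (1.82) and Ndel1 (-0.75) moved in opposite directions. Capza2, of the actin-capping end of dynactin, rose (0.77), and Actr1b, of its filament, fell (-0.82). Without the numbers 976 and 982, 7 dynein partners were lower.

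Of 29 tubulin folding and tail enzymes, 7 rose (24.1%) and 12 fell (41.4%). Svbp, the partner of the enzymes that remove the terminal tyrosine of alpha tubulin, rose (1.69), as did the deacetylase Sirt2 (1.22), whereas Agtpbp1, which trims tubulin glutamates (-1.74), and the polyglutamylase Ttll7 (-2.27) fell. Of 26 severing and end-binding proteins, 6 rose (23.1%) and 15 fell (57.7%). The polymerase Ckap5 (0.79) and the katanin-like Katnal2 (1.25) were higher, and the neuron navigator Nav1 (-2.88) and Slain1 (-1.97) were lower. Of 33 other microtubule-associated and tubulin-binding proteins, 4 rose (12.1%) and 23 fell (69.7%). This list includes kinases of the MARK and doublecortin-like families. The kinase Mark3 (0.86) and Mid2 (0.96) were higher, and the collapsin response genes Dpysl3 (-2.46) and Crmp1 (-2.48) were lower. In this last list 7 genes were higher if the numbers 976 and 982 were left out, and 7 if the astrocyte fraction library 976 alone was. The medians of the 5 lists were -0.45, -0.27, -0.11, -0.44 and -0.85 in this order, against -0.06 over all tested genes.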

How the data were processed

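Each library started from 25 ng of total RNA, per the labels (NEB Ultra II). The authors deposited 1 table. Its expected counts per gene and library were deposited by the authors without scaling. Its log2 values were normalized by the authors and, from the values, centred so that each gene has an input median of 0. CASAVA 1.8, DESeq and the build mm10 appear in the submitters' processing notes, with no role for each. The sources used here do not give the aligner, counting tool, strand setting or read length.

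Expected counts were rounded and tested with edgeR 4.0.16 (R 4.3.3): TMM library sizes, the filterByExpr filter at 10 counts, robust quasi-likelihood test, prior count of 2, Benjamini-Hochberg adjustment over 17672 genes, calls under 0.05. The fit was tested on simulated data in which few genes changed, as many up as down. In the real data 70.6% of tested genes were called, so the simulation does not test the scaling in that setting. CPM used TMM-scaled library sizes. A count of 0 allows up to 3 counts, 0.0912 to 0.136 CPM, or 0.880 CPM in the astrocyte fraction library 92. Such limits cover counting error only. Libraries of a group differed by more than sampling noise (chi-square per degree of freedom at least 11.2).

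After removal of group means, libraries with the same title number had correlations of 0.189 to 0.493, against a mean of -0.0791 for other pairs. Removal of group means itself pushes the mean of the other pairs below that of the same-number pairs, so it is not a separate comparison. The range of the other pairs is not given. Libraries of the same number were thus positively correlated, and whether the numbers form a pairing was not tested. The main fit and the ratio test did not use the title numbers. A fit with the title number as a replicate block was run as an alternative.

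Family shares used CPM per kilobase of the union of GENCODE M21 exons. All 88 members are in GENCODE M21, 79 with identical coordinates. Overlap with other genes and shared 50-base stretches came from the same release. The 50 bases stand in for an unknown read length. Repeat fits used DESeq2 1.42.0 and limma 3.58.1.

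Members, lists and pairs were chosen with earlier results of these data known. In each role group, values in every library were to be given for the gene with the highest mean CPM and up to 2 called genes in each direction with the largest change among those with a mean of at least 5 CPM. Values were added for Kif5b, Tubb2a, Mapt, Map2, Kif9, Kif27, Kif23, Kif18a and Tuba1c after they were seen. From each partner list up to 2 called genes per direction with the smallest adjusted p were named. Dynein light chains and further dynactin subunits of the partner list were named after their values were seen.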

Additional observations from a re-analysis of the deposited data

Results flagged for a closer look

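In each group of 5 libraries, the gap of the lowest or highest library to its nearest other was divided by the range of the group, on the log2 scale. A library was singled out where this ratio exceeded Dixon's critical value. This was so for 14 of 174 groups (8.05%), where chance gives about 1 in 20. The shallow astrocyte fraction library 92 accounted for 5. It was high for Tubb3 (107.7 CPM, others 86.0 to 89.8), Kif3a (65.7, others 55.03 to 57.4) and Kifc5b (2.64, others 0.678 to 0.857), and low for Tuba1b (181.3, others 242 to 265) and Tubb5 (136.5, others 169 to 177). The input library 92 accounted for 4, high for Dync1h1 (628.7 CPM, others 399 to 449), Map1a (1607, others 1154 to 1259) and Kif3b (74.8, others 61.7 to 63.9) and low for Tuba1c (14.5, others 17.5 to 18.6).

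The astrocyte fraction library 976 was low for Mapre2 (197.5 CPM, others 246 to 263) and high for Kif3b (76.2, others 57.9 to 61.9). The astrocyte fraction library 982 was high for Tppp (83.8 CPM, others 68.7 to 71.6). Among inputs, 982 was low for Kif24 (0.212 CPM, others 0.466 to 0.590) and 976 was low for Kif20b (0.405, others 0.851 to 1.03).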

How the results depend on the processing

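Of 66 called members, 52 kept their call in each of 18 alternatives that gave a value: 44 lower and 8 higher, the latter being Tubb2b, Kif1c, Kifc3, Mapre1, Kif7, Dync2li1, Kif13a and Kif16b. The other 14 lost it at least once, and 16 of the 21 members without a call gained one. With libraries left out in turn, 15 to 18 members were higher and 46 to 49 lower. With total count scaling 8 members were higher. With the title number as a replicate block the same 17 were higher and the same 49 lower, so the block changed no member's call.

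Members without a call or with small changes, and Kif27 (0.86, not called), changed sign. With total count scaling Tubb4b was at -0.24, Kif9 at -0.0946, Dctn6 at -0.0602, Kif26a at -0.20 and Map4 at -0.0787, and under the 5 CPM minimum Tubb4b was at -0.0448. With the replicate block Kif9 was at -0.0961 and Kif27 at -0.19. On the authors' log2 values Kif9 was at -0.32, the Kif27 log2 fold change was -1.21, and Kif26a was at -0.0103. Without the numbers 976 and 982 Tuba4a was at 0.0380, Kif9 at -0.26, Kif27 at -1.43, Dctn2 at 0.12, Dctn3 at 0.0619, Dctn5 at 0.14 and Kif1b at 0.0253. With 1 library left out, values ran from -0.17 to 0.0079 for Tuba4a, -0.46 to 0.37 for Kif9, -0.63 to 1.19 for Kif27, -0.0922 to 0.0236 for Dctn2, -0.0870 to 0.0507 for Dctn5, -0.0908 to 0.35 for Kif26a, -0.12 to 0.0565 for Kif1b and -0.0551 to 0.0162 for Kif3b. The cause was not tested.

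All 26 ratios kept their sign, and their calls with 1 library left out or 2 CPM added. Without the numbers 976 and 982, 0 were called, since an exact permutation test of 3 against 3 cannot go below p = 0.1. With the longest transcript as length, chosen after seeing the data, 40 of 60 family shares moved by over 1 SD. The depth of the astrocyte fraction library 92 limits genes under 1 CPM.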

Other observations

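Pseudogenes of 2 beta tubulins had rows of their own outside the members. The input mean of Tubb2a-ps2 was 5.16 CPM and its astrocyte fraction mean 10.8 CPM (log2 fold change 1.03, edgeR adjusted p = 0.000554). Tubb4b-ps1 had means of 5.73 and 4.58 CPM and Tubb4b-ps2 means of 2.003 and 2.26 CPM, and neither was called (adjusted p = 0.166 and 0.717).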
